A study of Mus musculus with 9 samples.

Results

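The comparison set IFN-γ, the type II interferon, directly against IL-27 in cells that received IL-33 with either of them. The cells were ILC2s (group 2 innate lymphoid cells), lymphocytes of tissues without rearranged antigen receptors that are known for making IL-5 and IL-13. Wild-type C57BL/6 mice were the source, with the cells taken from their fat-associated lymphoid clusters and kept in culture for 48 h. The members were the 3 libraries with IL-33 and IFN-γ and the 3 libraries with IL-33 and IL-27, 6 of the 9 RNA sequencing libraries of the study. Every cytokine was used at 10 ng/ml, and IL-33 was present in all 9 cultures. The 3 libraries with IL-33 alone served as a comparator for levels and entered the estimate of spread. Libraries with the same replicate number, 1 to 3, were paired. Gene levels were in FPKM (fragments per unit of transcript length, scaled to the mapped fragments of the library). Of 23234 listed genes, 8437 had a 6-library mean that reached 5 FPKM, and these were tested. L1cam, with a mean of 4.99 FPKM, lay just outside that limit. Separate mice or cultures for the replicates are not stated by the labels. The p-values therefore measure only how far these samples spread, which may be technical.

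IFN-γ signals through the receptor chains IFNGR1 and IFNGR2 and the kinases JAK1 and JAK2, and its target genes often carry palindromic GAS elements. It induces the transcription factor IRF1, which with its relatives acts on interferon-stimulated response elements (ISREs). IL-27 is made of the subunits p28 and EBI3, binds a receptor of IL27RA and gp130, and activates STAT3. The feedback inhibitors of these pathways are SOCS1, which blocks JAK kinases downstream of interferon receptors, and SOCS3, a STAT3 target that binds gp130. Both cytokines are known to restrain ILC2s.

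Promoter windows of 4 genes are shown to place the motif matches found near genes that the comparison describes: Gbp2 and Cxcl10, which were higher with IFN-γ, Socs3, which was lower with IFN-γ, and Socs1, its counterpart among the feedback inhibitors. Each window holds the 250 bases before the RefSeq transcription start on build GRCm38.p6, written 5′ to 3′ on the strand of the gene. Capitals mark matches to the GAS motif TTCNNNGAA or the ISRE motif GAAANNGAAA, searched on both strands.
Gbp2: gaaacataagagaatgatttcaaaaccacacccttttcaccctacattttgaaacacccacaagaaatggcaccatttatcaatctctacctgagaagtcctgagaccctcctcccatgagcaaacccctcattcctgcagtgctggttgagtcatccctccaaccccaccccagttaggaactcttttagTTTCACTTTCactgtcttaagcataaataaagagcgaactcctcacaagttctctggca
Cxcl10: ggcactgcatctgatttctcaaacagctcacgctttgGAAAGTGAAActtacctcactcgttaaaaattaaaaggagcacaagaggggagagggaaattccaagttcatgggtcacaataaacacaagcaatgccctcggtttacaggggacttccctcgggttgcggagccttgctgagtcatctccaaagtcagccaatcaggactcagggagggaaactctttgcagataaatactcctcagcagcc
Socs1: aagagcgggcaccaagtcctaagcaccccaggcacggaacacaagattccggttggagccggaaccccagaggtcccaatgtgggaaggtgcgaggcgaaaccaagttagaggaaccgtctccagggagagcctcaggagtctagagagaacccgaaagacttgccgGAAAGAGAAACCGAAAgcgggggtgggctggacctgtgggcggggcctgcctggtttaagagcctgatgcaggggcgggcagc
Socs3: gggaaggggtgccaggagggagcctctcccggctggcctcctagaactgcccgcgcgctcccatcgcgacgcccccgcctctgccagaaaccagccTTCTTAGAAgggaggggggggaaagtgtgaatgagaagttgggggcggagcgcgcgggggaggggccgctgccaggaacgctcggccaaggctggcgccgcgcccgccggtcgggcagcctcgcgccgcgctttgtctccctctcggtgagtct

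The window of Gbp2 lay at chr3:142620413-142620662 on the plus strand and held an ISRE match 59 to 50 bases before the start. That of Cxcl10 lay at chr5:92348890-92349139 on the minus strand, with an ISRE match 213 to 204 bases before the start. The Socs1 window, at chr16:10785537-10785786 on the minus strand, held overlapping ISRE matches at 83 to 74 and 77 to 68 bases before the start. The Socs3 window, at chr11:117969367-117969616 on the minus strand, held a GAS match 154 to 146 bases before the start and no ISRE match. Of all 27025 windows of this length in the RefSeq table, 7.2% held the GAS motif and 3.0% the ISRE motif. Among the 6111 tested genes with a window the shares were 5.8% and 2.7%. Windows were found for 4 of the 8 genes called higher, of which 0 held a GAS and 2 an ISRE match, and for 15 of the 17 called lower, of which 1 held a GAS and 0 an ISRE match. The windows of Pim2, Il1rl1 and Tnfrsf8, also called, held neither. The 4 windows printed are only some of those of described genes in which a match was found. That of Irf1, not printed, held a GAS match 90 to 82 bases before the start. A match is a match of letters, and no binding was measured.

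The libraries were shallow. By the steps between low values, each library held roughly 851000 to 1023000 fragments, so that 5 FPKM in a transcript of 2 kb rested on about 8.5 to 10.2 fragments and 3 fragments were worth 1.466 to 1.763 FPKM. Of 12 ILC2 markers none was at 0 in all 9 libraries, and their summed level was 5812 to 9890 FPKM with IFN-γ and 12162 to 13250 FPKM with IL-27, a sum carried by Il5 and Il13. Of 7 fibroblast markers, Col1a1, Col1a2, Col3a1, Pdgfra and Sparc were highest in replicate 3 of both arms, Dcn only in that of IFN-γ, and Lum was highest in replicate 1 of both. Sparc stood at 28.2 FPKM in IFN-γ replicate 3 and 21.6 FPKM in IL-27 replicate 3, against at most 1.35 FPKM in the other 4 libraries. The summed list was 3.83 to 81.2 FPKM with IFN-γ and 7.44 to 58.0 FPKM with IL-27. The pairing by number sets replicate 3 against replicate 3. All 4 adipocyte and all 5 mesothelial markers were at 0, as were Csf1r, C1qa, Pax5 and Cd4. The summed T cell list was 35.9 to 82.7 FPKM with IFN-γ and 48.6 to 104.7 FPKM with IL-27, most of it Cd3g. The summed endothelial list was 158 to 204 FPKM with IFN-γ and 81.7 to 106 FPKM with IL-27, nearly all of it Pecam1, while Kdr was at 0. The part of other cell types in the results was not tested. In bulk samples fewer cells of a type and less RNA per cell cannot be told apart.

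The median log2 difference, IFN-γ minus IL-27, over all 8437 genes was 0.006, and for 7064 genes (83.7%) the 95% interval of the difference lay within a doubling and a halving. In limma's test 8 genes passed as higher with IFN-γ, 0.0948% of those tested, and 17 as lower, 0.201%, at a Benjamini-Hochberg adjusted p under 0.05. The genes higher with IFN-γ were the chemokine genes Cxcl10 and Ccl5, the GTPase genes Gbp2 and Gbp10, the kinase gene Pim2, and Cd72, Grap and Abcc3. The lower ones included the feedback inhibitor Socs3, the IL-33 receptor gene Il1rl1, the CD30 gene Tnfrsf8 and the chemokine receptor gene Ccr2. All 25 had the same sign in all 3 pairs, as did 35.5% of all tested genes. Of the 25, 8 of the higher and 12 of the lower ones differed by at least a doubling.

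**Figure D1:**
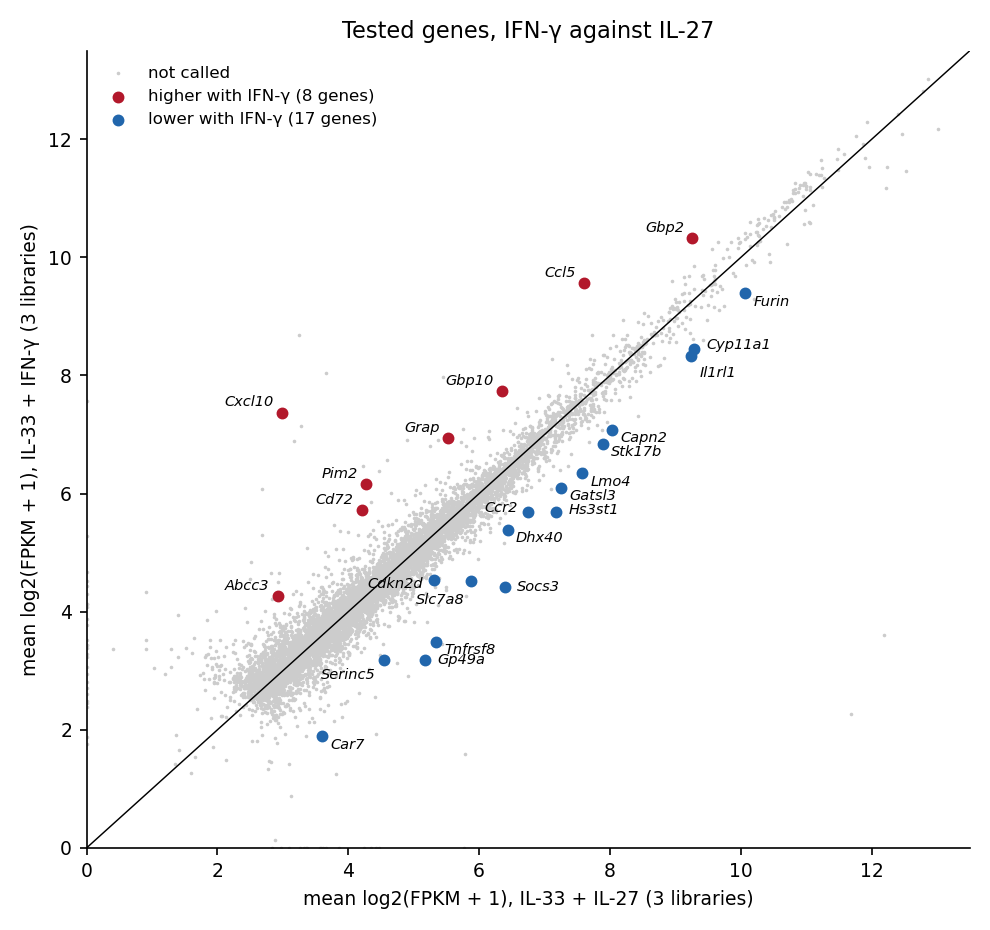
Mean log2(FPKM + 1) of the 3 libraries with IL-33 and IL-27 (x axis) against that of the 3 libraries with IL-33 and IFN-γ (y axis) for the 8437 tested genes, with the line of equal levels. The 8 genes higher with IFN-γ (red) and 17 lower (blue) are named, and Cxcl10 lies farthest from the line among them.

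The number of genes called rested on each of the 6 libraries. Without IFN-γ replicate 1 the same test called 1 gene higher and 0 lower, without IFN-γ replicate 2 it called 0 and 2, and without IFN-γ replicate 3 it called 1 and 1. In that order, 0 higher and 0 lower, 0 and 1, and 1 and 1 of these were among the 25 genes. Without IL-27 replicate 1 the test called 5 and 5, without IL-27 replicate 2 it called 1 and 1, and without IL-27 replicate 3 it called 0 and 1. Of these, 5 and 4, 0 and 1, and 0 and 0 were among the 25 genes. Without the pairing by number limma called 0 genes in either direction, with 359 genes at an unadjusted p under 0.05 against 1068 in the paired fit. None of the 25 genes changed sign under any of the 21 alternatives. Each had the same sign in all 3 pairs, so leaving out a replicate number could not reverse it.

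The level with IL-33 alone differed among the called genes and is given as a level, without a test. Of the 8 genes higher with IFN-γ, 5 had an IL-33 mean below both arms (Cxcl10, Ccl5, Gbp2, Gbp10 and Abcc3), on the log2(FPKM + 1) scale, while the means of Pim2, Grap and Cd72 lay between IFN-γ above and IL-27 below. Of the 17 lower genes, 10 had an IL-33 mean between the arms, 6 a mean above both (Car7, Dhx40, Furin, Gp49a, Slc7a8 and Tnfrsf8), and Ccr2 a mean below both.

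Among the feedback inhibitors, Socs3 (chr11:117827393-117831361, mm9) was 10.4, 20.9 and 38.5 FPKM in IFN-γ replicates 1, 2 and 3, and 46.3, 74.7 and 163 FPKM in the IL-27 libraries. With IL-33 alone it was 30.3, 67.2 and 209 FPKM. Every IFN-γ library lay below every IL-27 library and below its own IL-33 partner, although the level varied several fold between numbers. The log2 difference was -1.96 ± 0.20 (SE), with paired differences of -2.05, -1.79 and -2.06 and an adjusted p of 0.0187. Socs1 went the other way, with 30.9, 50.1 and 41.1 FPKM with IFN-γ, 16.3, 14.7 and 14.2 FPKM with IL-27, and 8.01, 4.59 and 3.90 FPKM with IL-33 alone. The 3 groups did not overlap. Its difference of 1.35 ± 0.26 (95% interval 0.75 to 1.95) did not pass the test over all genes, with an adjusted p of 0.1003.

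Pim2 (chrX:7455388-7460558, mm9), a survival-promoting serine/threonine kinase gene, had the smallest adjusted p of the comparison. It was 144, 68.2 and 35.4 FPKM with IFN-γ and 32.0, 17.8 and 10.5 FPKM with IL-27, and the IL-33 libraries lay between at 65.9, 41.0 and 26.7 FPKM. Within each number the order was IFN-γ, IL-33, IL-27. The log2 difference was 1.89 ± 0.15 with an adjusted p of 0.0145. Its relative Pim1 was 166, 133 and 231 FPKM with IFN-γ and 226, 189 and 235 FPKM with IL-27, a difference of -0.33 with a 95% interval of -0.71 to 0.06.

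**Figure D2:**
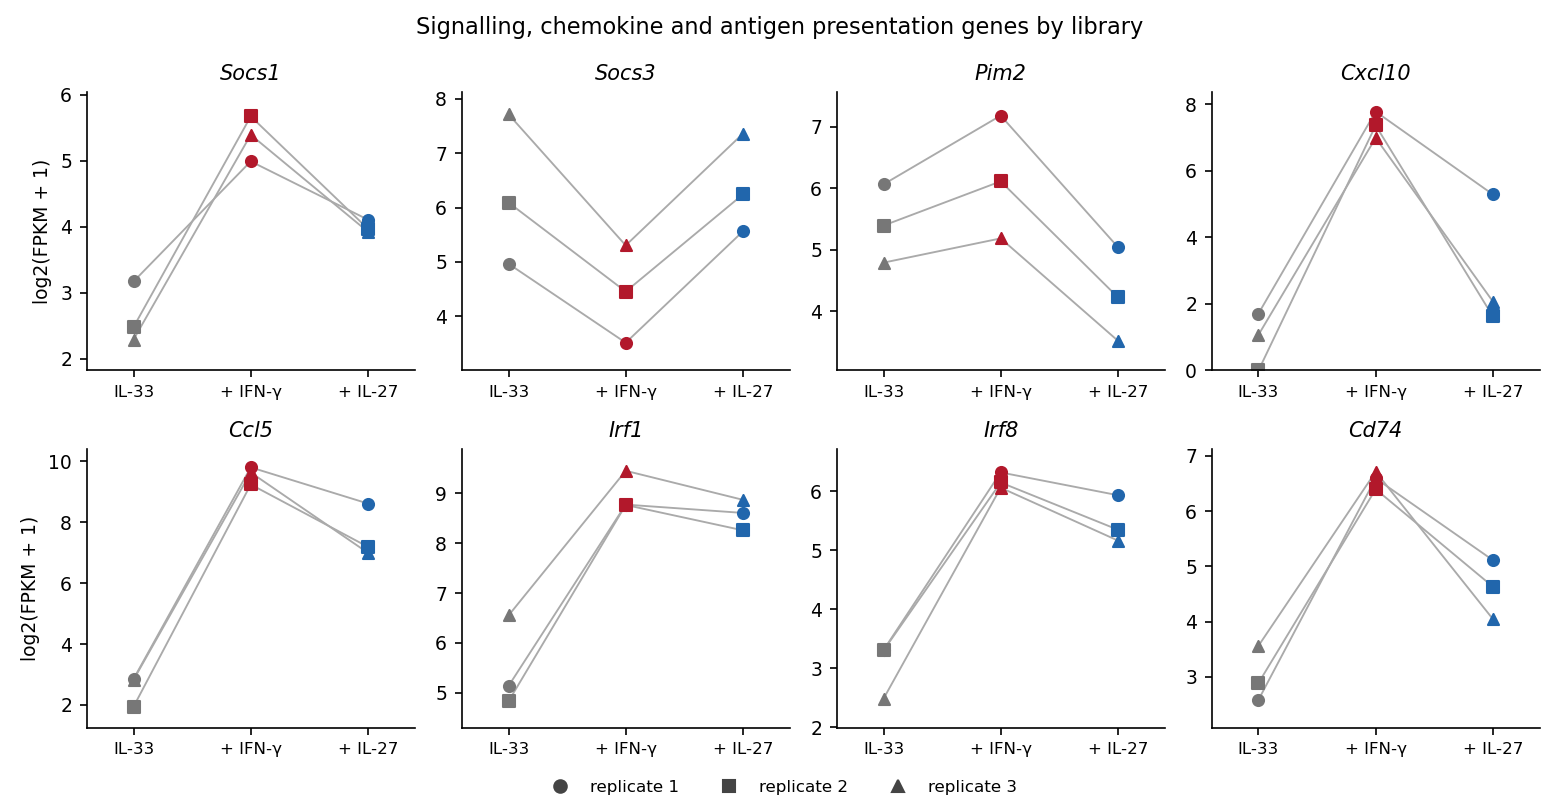
Log2(FPKM + 1) of 8 genes in each library (y axis, range differs by panel) for the IL-33, IFN-γ and IL-27 groups, all of which received IL-33, with lines joining libraries of the same replicate number. Socs3 is lowest and Pim2 highest with IFN-γ in all 3 numbers, while Irf1 is at 435 to 701 FPKM with IFN-γ and 306 to 468 FPKM with IL-27.

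The list of 16 tested of 21 genes of IL-27 receptor, gp130 and STAT3 signalling held these 2 calls, Pim2 higher and Socs3 lower, and 14 genes that did not pass. Its median difference was 0.02, against 0.006 for all genes. Stat3 itself was 167, 163 and 223 FPKM with IFN-γ and 158, 168 and 216 FPKM with IL-27, a difference of 0.03 with a 95% interval of -0.19 to 0.25. Il27ra was 49.8, 49.5 and 55.7 FPKM with IFN-γ and 55.5, 39.1 and 53.0 FPKM with IL-27, a difference of 0.08 (95% interval -0.31 to 0.48). Bcl3, an atypical IκB protein gene, was 66.3, 88.9 and 106 FPKM with IFN-γ and 117, 113 and 127 FPKM with IL-27. Those groups did not overlap, and the difference of -0.47 had an adjusted p of 0.227.

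None of the 17 tested genes of IFN-γ receptor signalling passed the test, and their median difference was 0.26. Irf1 was 438, 435 and 701 FPKM with IFN-γ and 390, 306 and 468 FPKM with IL-27, a difference of 0.42 with a 95% interval of -0.10 to 0.94. Irf8, an interferon-induced transcription factor gene, was 78.9, 70.0 and 65.8 FPKM with IFN-γ and 60.2, 39.8 and 34.9 FPKM with IL-27, without overlap (0.69, adjusted p of 0.174). Usp18, a brake on type I interferon receptors, was 19.98, 44.5 and 63.7 FPKM with IFN-γ and 15.8, 14.3 and 20.9 FPKM with IL-27 (1.15, adjusted p of 0.2001). Ptpn6, encoding the phosphatase SHP-1, was 33.4, 45.2 and 44.6 FPKM with IFN-γ and 25.85, 24.75 and 30.4 FPKM with IL-27 (0.58, adjusted p of 0.148). The receptor genes Ifngr1 and Ifngr2 differed by -0.24 (95% interval -0.63 to 0.14) and -0.03 (-0.68 to 0.63).

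The guanylate-binding proteins are interferon-induced GTPases that attack the vacuoles of intracellular pathogens. All 11 family members were tested, and all 11 had a positive difference in every pair. Over all tested genes, 35.5% had the same sign in all 3 pairs. Of the 11, 2 passed the test as higher with IFN-γ, Gbp2 and Gbp10, 0 passed as lower, and 9 did not pass. The family median was 0.97, and the members ranged from 0.73 for Gbp11 to 1.39 for Gbp10. A cluster on chromosome 3 holds 5 members (median 1.01), and chromosome 5 holds 6 (median 0.97). In 8 of the 11 genes (72.7%) the 3 IFN-γ libraries lay above the 3 IL-27 libraries, compared with 9.23% of all tested genes whose arms did not overlap in either direction.

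Gbp2 (chr3:142283566-142300972, mm9) was 858, 1198 and 2056 FPKM with IFN-γ and 499, 578 and 795 FPKM with IL-27, and 6.78, 10.8 and 16.0 FPKM with IL-33 alone. Both arms were far above IL-33 alone, and the lowest IFN-γ library was above the highest IL-27 library. The log2 difference was 1.07 ± 0.13 with an adjusted p of 0.0253. Gbp10 was 152, 178 and 358 FPKM with IFN-γ and 72.7, 67.8 and 105 FPKM with IL-27, a difference of 1.39 ± 0.15 with an adjusted p of 0.0233. Gbp6, a close copy of Gbp10 with which reads may be shared, was 248, 272 and 445 FPKM with IFN-γ and 129, 116 and 172 FPKM with IL-27 (1.18, adjusted p of 0.0529). Values of these copies are uncertain as single genes. Gbp4 was 430, 311 and 524 FPKM with IFN-γ and 276, 158 and 211 FPKM with IL-27 (0.97, adjusted p of 0.112). Gbp8 had a difference of 0.90 (adjusted p of 0.0529). Gbp1, the least abundant member described here, was 5.98, 11.7 and 18.7 FPKM with IFN-γ and 3.35, 3.92 and 8.80 FPKM with IL-27, and was listed at 0 with IL-33 alone (1.02, 95% interval 0.04 to 2.00).

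The immunity-related GTPases work on the same vacuoles. Of the 13 tested of 14, 0 passed the test in either direction, all 13 had a positive mean difference, and the median was 0.54. Only Gm5431 was negative in a pair. Iigp1 was 54.9, 113 and 274 FPKM with IFN-γ and 27.9, 32.0 and 72.3 FPKM with IL-27, a difference of 1.55 (95% interval 0.94 to 2.16, adjusted p of 0.0711). Igtp was 621, 926 and 1389 FPKM with IFN-γ and 559, 583 and 745 FPKM with IL-27. Its arms overlapped, and the difference of 0.57 had an adjusted p of 0.184. Ifi47 was close to it, with a difference of 0.48 (adjusted p of 0.314). An ISRE match was present in the promoter windows of 4 of the 4 guanylate-binding protein genes that had one and in 7 of 11 windows of immunity-related GTPases (63.6%), and a GAS match in 2 of 4 and 6 of 11.

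**Figure D3:**
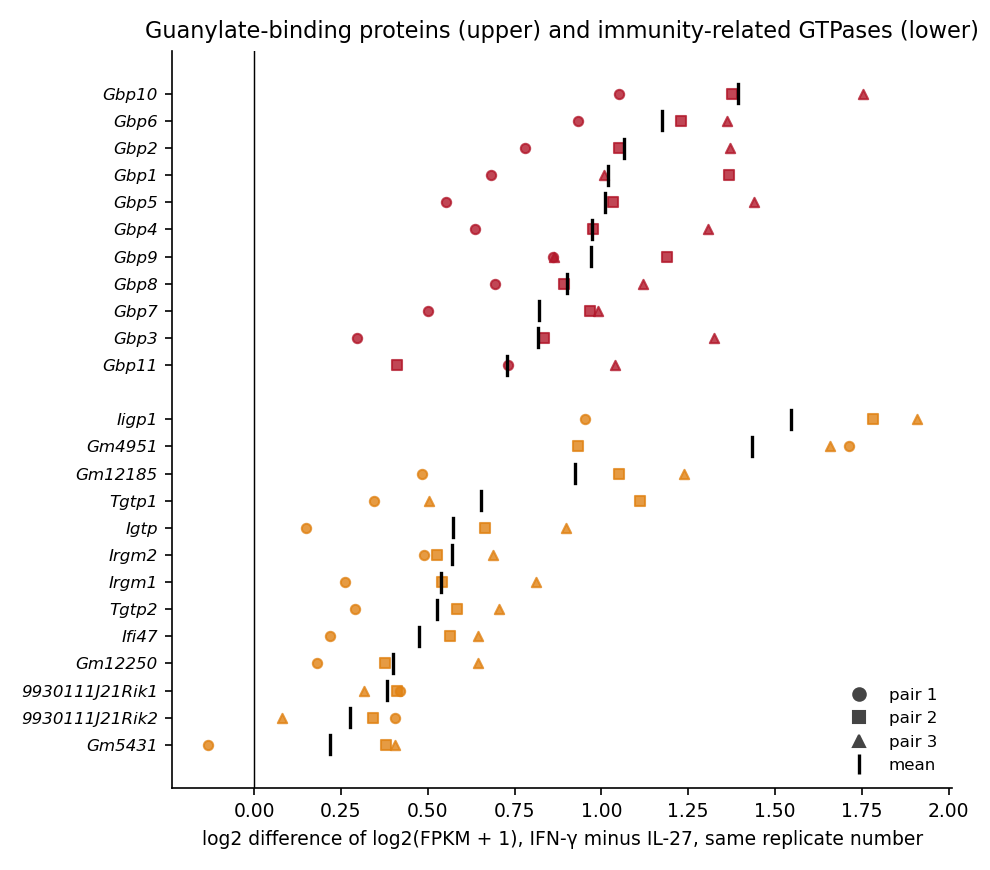
Differences in log2(FPKM + 1), IFN-γ minus IL-27, of the 11 guanylate-binding proteins (red) and 13 immunity-related GTPases (orange) in each pair of libraries with the same replicate number (symbols) and their mean (bars). All but 1 symbol, that of Gm5431 in pair 1, lie above 0.

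None of the 36 tested of 52 antiviral interferon-stimulated genes passed, and their median was 0.23. Zbp1, a sensor of Z-form nucleic acid, was 194, 290 and 460 FPKM with IFN-γ and 207, 282 and 372 FPKM with IL-27, a difference of 0.08 with a 95% interval of -0.25 to 0.42. Of 4 tested of 11 PYHIN family genes, among them DNA sensors, 0 passed, with a median of 0.61. The largest was Ifi203, at 46.6, 51.0 and 83.3 FPKM with IFN-γ and 21.5, 19.0 and 52.9 FPKM with IL-27 (1.04, adjusted p of 0.118). The 5 immunoproteasome genes had a median of 0.43 and 0 calls. Psmb9 was 282, 286 and 366 FPKM with IFN-γ and 190, 192 and 243 FPKM with IL-27 (0.58, 95% interval 0.37 to 0.78, adjusted p of 0.0529). Psmb8, another catalytic subunit, differed by 0.49 (adjusted p of 0.126) and the activator subunit Psme2 by 0.43 (adjusted p of 0.386). The arms did not overlap in 4 of the 5, against 9.23% of all tested genes. The 14 constitutive proteasome subunits had a median of 0.02 and 0 calls.

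None of the 21 class I and peptide loading genes passed, the median was 0.13, and all 21 had a 95% interval within a doubling and a halving. Of the 21, 17 had a positive difference (81.0%, against 51.3% of all tested genes). In 12 the sign was the same in all 3 pairs (57.1%, against 35.5% of all tested genes). B2m, the class I light chain, was 6745, 8082 and 10629 FPKM with IFN-γ and 6477, 6953 and 9250 FPKM with IL-27, a difference of 0.16 (95% interval -0.04 to 0.36). H2-K1 differed by 0.24 (-0.01 to 0.49). Of 14 class II presentation genes 7 were tested and 0 passed. Cd74, the invariant chain, was 95.5, 83.2 and 104 FPKM with IFN-γ and 33.6, 23.8 and 15.5 FPKM with IL-27, without overlap (1.97 ± 0.32, adjusted p of 0.0619). H2-Aa, the class II alpha chain, was 15.2, 23.95 and 19.1 FPKM with IFN-γ, and it was listed at 0 in IL-27 replicates 1 and 2 and in all IL-33 libraries and at 5.60 FPKM in IL-27 replicate 3. H2-Eb1 was 17.2, 7.71 and 8.60 FPKM with IFN-γ and 1.41, 0.64 and 0.70 FPKM with IL-27, the latter below the worth of 3 fragments in 2 kb. Both reached the limit for testing mainly through the IFN-γ libraries, so no median is given here for the list. A median bar drawn for it supports nothing. The adjusted p of H2-Aa was 0.118 and that of H2-Eb1 was 0.126. H2-Oa differed by 1.71 (95% interval 0.30 to 3.12), and Ctss, a protease that trims the invariant chain, by 0.74 (0.11 to 1.38), with pair 1 negative. Ciita, the class II transactivator, had a mean under the limit and was at most 0.80 FPKM in every library. Summed macrophage and dendritic cell markers were 5.41 to 18.8 FPKM with IFN-γ and 1.16 to 17 FPKM with IL-27, and the part of such cells in the class II values was not tested.

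Of 17 chemokine genes 5 were tested, and 2 passed, both higher with IFN-γ. Cxcl10 (chr5:92775664-92777915, mm9), a ligand of CXCR3, was 218, 163 and 126 FPKM with IFN-γ and 38.0, 2.08 and 3.20 FPKM with IL-27, and at most 2.27 FPKM with IL-33 alone. IL-27 replicate 1 stood apart from replicates 2 and 3, whose values were near the worth of a few fragments. The log2 difference was 4.38 ± 0.56 with an adjusted p of 0.0309, and the paired differences were 2.49, 5.73 and 4.91. Ccl5 (chr11:83339280-83344020, mm9), a chemokine that attracts lymphocytes, was 893, 605 and 795 FPKM with IFN-γ and 391, 145 and 127 FPKM with IL-27, against 6.22, 2.85 and 6.10 FPKM with IL-33 alone. Here too IL-27 replicate 1 was the highest of its arm, and the arms did not overlap (1.96 ± 0.28, adjusted p of 0.0460). Ccr2, the receptor of CCL2, was lower with IFN-γ, at 19.2, 48.1 and 136 FPKM against 56.2, 88.9 and 239 FPKM with IL-27 (-1.06 ± 0.15, adjusted p of 0.0454). It was 21.03, 36.3 and 106 FPKM with IL-33 alone.

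**Figure D4:**
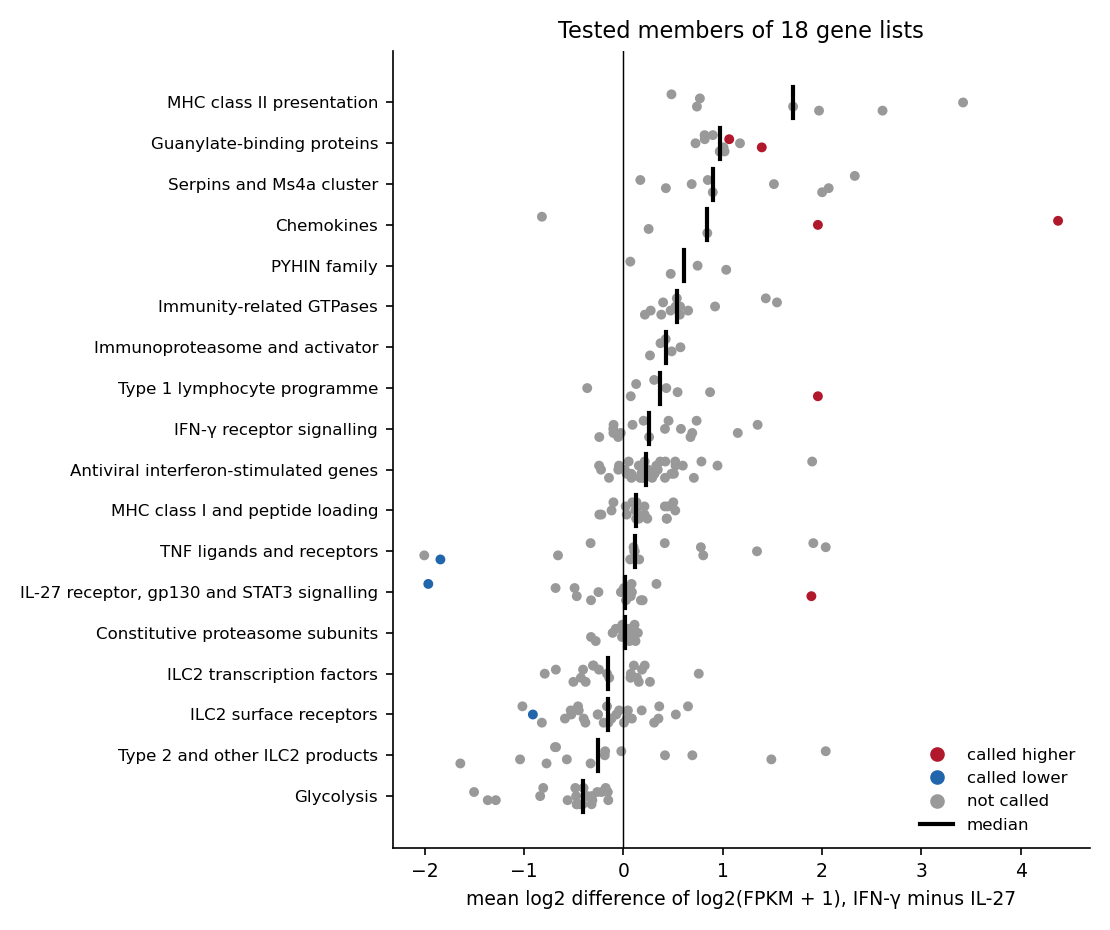
Mean differences in log2(FPKM + 1), IFN-γ minus IL-27, of the tested members of 18 gene lists (points; red higher, blue lower, grey not called) with each list's median (bars). Guanylate-binding proteins lie to the right with a median of 0.97, and all glycolysis genes lie to the left of 0 with a median of -0.41. Where members of a list reached the limit for testing mainly through the libraries of a given arm, its bar supports nothing on the list. Class II presentation is among such lists.

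Of 22 type 2 cytokines and other ILC2 products 14 were tested and none passed, although the arms of the main cytokines Il5 and Il13 did not overlap. Il5 was 1656, 2183 and 3450 FPKM with IFN-γ, 4377, 4717 and 5254 FPKM with IL-27, and 9222, 5587 and 6141 FPKM with IL-33 alone. The 3 groups did not overlap. The difference was -1.04 ± 0.26 (95% interval -1.64 to -0.44), with an adjusted p of 0.161, and its size was largest in pair 1 (-1.40) and smallest in pair 3 (-0.61). Il13 was 2511, 3132 and 3348 FPKM with IFN-γ and 5637, 4918 and 3975 FPKM with IL-27. Again the arms did not overlap (-0.69 ± 0.23, 95% interval -1.22 to -0.16, adjusted p of 0.282). Il4 was 17.7, 21.4 and 29.5 FPKM with IFN-γ and 23.2, 41.9 and 60.2 FPKM with IL-27, an overlap at the lowest IL-27 library (-0.77, adjusted p of 0.151).

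Penk, the preproenkephalin gene, had the same order, at 2.51, 2.34 and 6.40 FPKM with IFN-γ and 12.0, 7.71 and 22.3 FPKM with IL-27 (-1.64, adjusted p of 0.185). It reached the limit for testing through the IL-27 libraries, so its value supports nothing on the list.

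The pairs of Il9, Areg, Csf2 and Il6 differed in sign. Il9 was 36.5, 42.5 and 108 FPKM with IFN-γ and 106, 44.9 and 52.2 FPKM with IL-27, against 2029, 233 and 305 FPKM with IL-33 alone. The pairs disagreed in sign, and the difference of -0.18 had a wide 95% interval of -1.74 to 1.37. Areg, encoding the tissue repair factor amphiregulin, was 216, 327 and 777 FPKM with IFN-γ and 425, 461 and 557 FPKM with IL-27. It was lower with IFN-γ in pairs 1 and 2 and higher in pair 3 (-0.33, 95% interval -1.14 to 0.48). Csf2 differed by -0.02 (-0.86 to 0.82) and Il6 by 0.42 (-0.10 to 0.94). The median of the 14 products was -0.26, and over the 3 pairs it was -0.65, -0.35 and 0.18. Without IFN-γ replicate 1 it was 0.05. The median includes Penk, tested through the IL-27 libraries, and Tnf, tested through the IFN-γ libraries. It therefore supports nothing on the list.

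**Figure D5:**
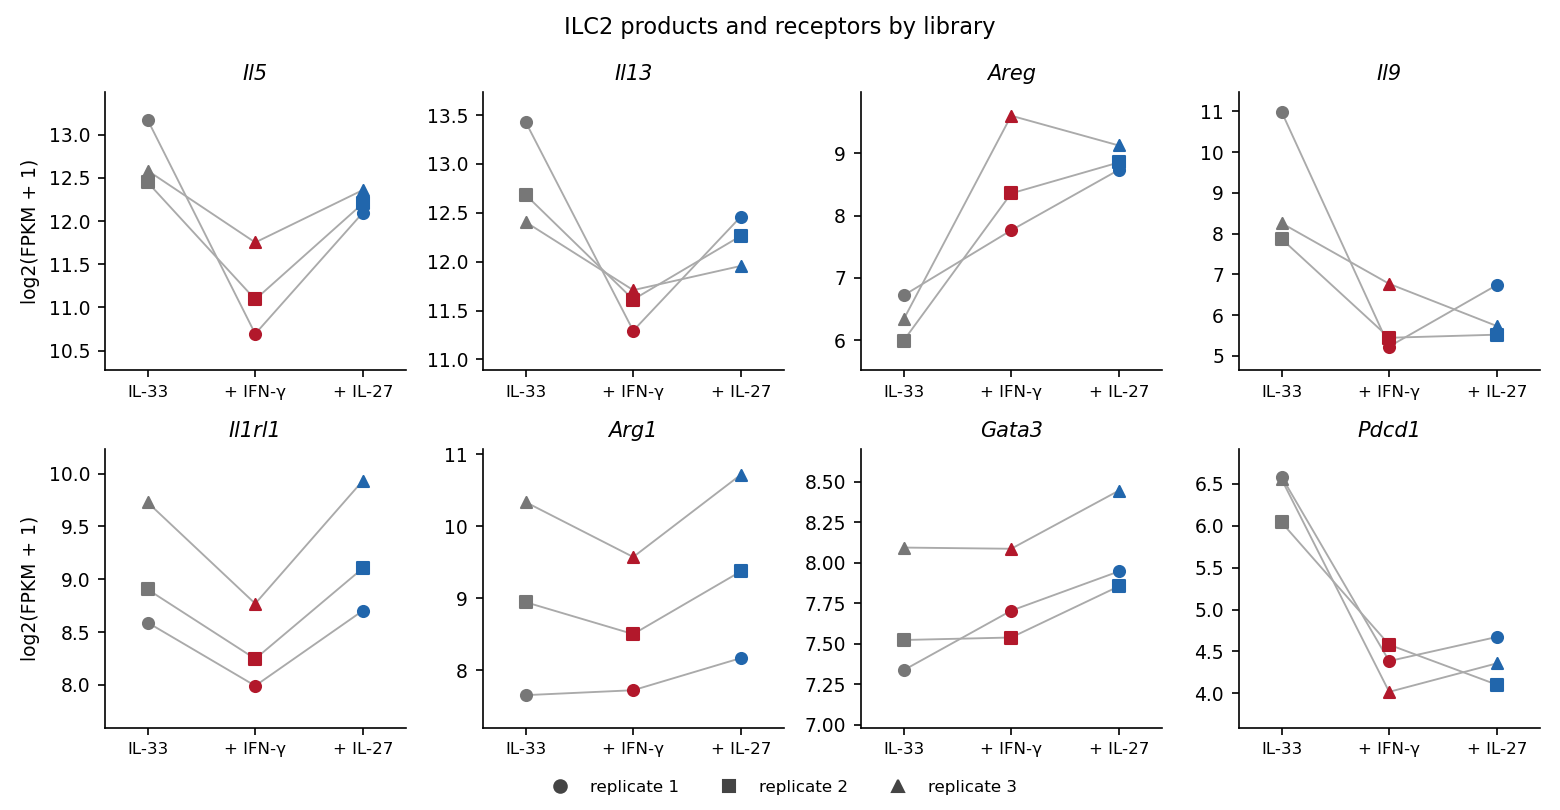
Log2(FPKM + 1) of 8 ILC2 genes in each library (y axis, range differs by panel and does not start at 0), with lines joining libraries of the same replicate number. The IFN-γ libraries are lowest for Il5, Il13 and Il1rl1 in all 3 numbers, while Areg and Il9 change order between numbers.

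Among 28 tested of 31 ILC2 surface receptors and related genes, 1 passed the test, Il1rl1 (chr1:40486415-40522260, mm9), which encodes the IL-33 receptor ST2. It was 253, 303 and 435 FPKM with IFN-γ and 415, 549 and 976 FPKM with IL-27, and 384, 478 and 846 FPKM with IL-33 alone. Within each number the IFN-γ library was the lowest of the 3 and the IL-27 library the highest, while the ranges of the arms overlapped. The difference was -0.91 ± 0.11 with an adjusted p of 0.0253. Il2ra, the high-affinity IL-2 receptor chain, was 414, 413 and 315 FPKM with IFN-γ and 575, 576 and 413 FPKM with IL-27, both below the 877 to 1018 FPKM of IL-33 alone (-0.45, adjusted p of 0.151). Cysltr1, a receptor for cysteinyl leukotrienes, was 10.3, 11.1 and 20.9 FPKM with IFN-γ and 17.4, 30.3 and 41.9 FPKM with IL-27 (-1.02, adjusted p of 0.0529). Il4ra differed by -0.59 (adjusted p of 0.126). Klrg1 differed by -0.20 (95% interval -0.45 to 0.06), Kit by 0.36 (0.03 to 0.69), Icos by -0.15 (-0.50 to 0.20) and Il7r by -0.07 (-0.69 to 0.55).

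Transcription factors that maintain ILC2s did not pass the test, 0 of 20 tested of 24, with a median of -0.15 that was 0.004 without IFN-γ replicate 3. Gata3 was 208, 185 and 271 FPKM with IFN-γ and 246, 231 and 348 FPKM with IL-27, lower in every pair (-0.31, 95% interval -0.55 to -0.06, adjusted p of 0.293). Pparg, a lipid-sensing nuclear receptor, was 31.2, 41.5 and 68.2 FPKM with IFN-γ and 55.2, 67.6 and 126 FPKM with IL-27 (-0.79, adjusted p of 0.0529). Id2 was lower in every pair as well (-0.43, adjusted p of 0.182), and Rora differed by 0.16 (95% interval -0.21 to 0.53). Arg1, encoding the enzyme arginase 1 that ILC2s carry, was 210, 362 and 761 FPKM with IFN-γ and 287, 662 and 1682 FPKM with IL-27 (-0.82, adjusted p of 0.0900).

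A list of 21 type 1 lymphocyte genes had 8 tested members. Tbx21, the gene of the factor T-bet, was 9.03, 6.42 and 3.70 FPKM with IFN-γ and 8.35, 2.38 and 0.80 FPKM with IL-27 (0.87, 95% interval -0.40 to 2.14), and it reached the limit for testing through the IFN-γ libraries. Ifng was 10.1, 12.2 and 10.6 FPKM with IFN-γ and 27.8, 12.1 and 8.60 FPKM with IL-27, and at most 1.00 FPKM with IL-33 alone (-0.36, 95% interval -1.44 to 0.72). Ccl5 was the member that passed, as higher, and the other 7 tested did not.

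Ly6a and Pdcd1 lay apart from IL-33 alone in both arms, with levels that were close between the arms. Not all genes given beside them did so. Cd274 was higher with IFN-γ in every pair, the interval of Ido1 was wide, and Pdcd1lg2 overlapped its range with IL-33 alone. Ly6a, encoding Sca-1, was 3074, 3966 and 4775 FPKM with IFN-γ and 3478, 3806 and 3996 FPKM with IL-27, against 1094 to 1583 FPKM with IL-33 alone. Its difference of 0.05 had a 95% interval of -0.18 to 0.27. Pdcd1, encoding the inhibitory receptor PD-1, was 19.9, 22.9 and 15.2 FPKM with IFN-γ and 24.5, 16.2 and 19.5 FPKM with IL-27, against 64.7 to 94.9 FPKM (-0.05, 95% interval -0.52 to 0.42). Its ligand gene Cd274 was 29.2, 17.3 and 46.3 FPKM with IFN-γ and 17.1, 10.9 and 21.3 FPKM with IL-27, higher with IFN-γ in every pair without passing the test (0.82, adjusted p of 0.317), and Pdcd1lg2 differed by -0.21 (95% interval -1.04 to 0.63). Cd34, whose mean was under the limit, was at most 3.75 FPKM in the IFN-γ libraries and 2.06 FPKM in the IL-27 libraries, against 30.4 to 35.6 FPKM with IL-33 alone. Ido1, a tryptophan-degrading enzyme gene, was 11.2, 13.2 and 66.8 FPKM with IFN-γ and 16.0, 17.2 and 21.4 FPKM with IL-27 (0.25, 95% interval -1.08 to 1.59). None of the 10 tested of 24 genes linked to IL-27-driven regulation passed, and Ebi3, the gene of an IL-27 subunit, differed by 0.39 (-0.23 to 1.01).

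Within the TNF family, 15 of 26 genes were tested and 1 passed. Tnfrsf8, encoding CD30, was 5.89, 10.99 and 16.3 FPKM with IFN-γ, 31.6, 33.3 and 57.9 FPKM with IL-27, and 54.9, 96.4 and 118 FPKM with IL-33 alone. The 2 arms did not overlap, and in each number the order was IL-33, IL-27, IFN-γ (-1.84 ± 0.17, adjusted p of 0.0187). Tnfrsf9, the gene of the costimulatory receptor 4-1BB, was 2.25, 6.90 and 15.7 FPKM with IFN-γ and 18.4, 26.4 and 51.0 FPKM with IL-27 (-2.004, adjusted p of 0.175). The ligand genes Tnfsf4, Tnf and Ltb, chosen after their values were seen, had positive differences, and Tnf reached the limit for testing only through the IFN-γ libraries. Tnfsf4, encoding OX40 ligand, was 143, 76.4 and 50.4 FPKM with IFN-γ and 73.4, 17.2 and 6.90 FPKM with IL-27 (1.91, adjusted p of 0.0570). Tnf was 35.0, 12.7 and 7.5 FPKM with IFN-γ and 8.75, 2.64 and 0.70 FPKM with IL-27 (2.04, adjusted p of 0.0996), and Ltb, encoding lymphotoxin beta, 111, 108 and 208 FPKM against 47.5, 36.6 and 84.3 FPKM (1.35, adjusted p of 0.147).

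The remaining genes that passed as higher with IFN-γ have varied roles. Cd72, a C-type lectin known as an inhibitory receptor of B cells, was 111, 39.5 and 31.4 FPKM with IFN-γ and 35.5, 10.9 and 13.4 FPKM with IL-27 (1.52 ± 0.18, adjusted p of 0.0253). Of B cell markers, Pax5 was at 0 in every library, while the summed list was 20.3 to 84.8 FPKM with IFN-γ and 33.2 to 57.0 FPKM with IL-27, and its part in the Cd72 values was not tested. Grap, an adaptor protein of the GRB2 family, was 181, 96.5 and 104 FPKM with IFN-γ and 48.1, 41.4 and 45.6 FPKM with IL-27 (1.42 ± 0.19, adjusted p of 0.0348). Abcc3, an exporter of organic anions, was 27.2, 18.5 and 11.9 FPKM with IFN-γ and 10.1, 6.02 and 4.60 FPKM with IL-27 (1.34 ± 0.18, adjusted p of 0.0407). The arms of Grap and Abcc3 did not overlap, and those of Cd72 did.

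Gp49a, an immunoglobulin-like receptor gene, had the largest difference of the genes lower with IFN-γ, at 6.42, 7.70 and 10.6 FPKM against 43.1, 21.2 and 47.2 FPKM with IL-27. The IL-33 libraries, at 43.4, 21.98 and 46.9 FPKM, were close to their IL-27 partners. The difference was -1.99 ± 0.23 with an adjusted p of 0.0253. Its near-identical neighbour Lilrb4 was 4.99, 13.2 and 14.4 FPKM with IFN-γ and 38.2, 33 and 59.5 FPKM with IL-27 (-1.98, adjusted p of 0.0546), and reads may be shared between the 2 genes. Hs3st1, a heparan sulfate sulfotransferase gene, was 37.5, 45.8 and 76.0 FPKM with IFN-γ and 132, 151 and 146 FPKM with IL-27 (-1.48 ± 0.17, adjusted p of 0.0249). Serinc5, a membrane protein gene, was 7.70, 5.71 and 11.8 FPKM against 21.6, 19.3 and 26.4 FPKM (-1.36 ± 0.17, adjusted p of 0.0274). The arms of Gp49a, Hs3st1 and Serinc5 did not overlap.

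In the next 5 genes the level varied more between replicate numbers than between arms, and the ranges of the arms overlapped. Slc7a8, a transporter of neutral amino acids, was 13.2, 19.2 and 41.5 FPKM with IFN-γ and 24.2, 53.5 and 145 FPKM with IL-27 (-1.35 ± 0.18, adjusted p of 0.0348). Gatsl3, encoding the arginine sensor CASTOR1, was 36.8, 57.5 and 145 FPKM against 76.0, 139 and 324 FPKM (-1.15 ± 0.14, adjusted p of 0.0307). Cyp11a1, the side-chain cleavage enzyme that starts steroid hormone synthesis, was 175, 385 and 620 FPKM with IFN-γ and 338, 672 and 1052 FPKM with IL-27. Its paired differences of -0.95, -0.80 and -0.76 were close together (-0.84 ± 0.08, adjusted p of 0.0187). Lmo4, a LIM-domain transcriptional regulator, was 39.1, 101 and 131 FPKM against 85.0, 263 and 302 FPKM (-1.22, adjusted p of 0.0249), and the kinase gene Stk17b 63.4, 122 and 190 FPKM against 141, 257 and 363 FPKM (-1.05, adjusted p of 0.0187).

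Furin, encoding a proprotein convertase, was 662, 634 and 726 FPKM with IFN-γ and 1114, 1020 and 1070 FPKM with IL-27, a difference of -0.67 ± 0.09 (adjusted p of 0.0309) with little spread in either arm. Capn2, a calpain gene, differed by -0.96 (adjusted p of 0.0454) without overlap. Dhx40, a helicase gene, differed by -1.05 (adjusted p of 0.0278), Cdkn2d, an inhibitor of cell cycle kinases, by -0.77 (adjusted p of 0.0454), and Car7, a carbonic anhydrase gene, by -1.72 (adjusted p of 0.0449). Car7 was 0, 3.53 and 10.2 FPKM with IFN-γ and 3.09, 9.08 and 42.6 FPKM with IL-27, so that its first pair was near the limit of detection, and it reached the limit for testing through the IL-27 libraries. Osm, encoding the cytokine oncostatin M, was 76.5, 76.9 and 115 FPKM against 135, 175 and 184 FPKM and did not pass (-0.89, adjusted p of 0.0529).

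Glycolytic enzymes and glucose or lactate transporters were tested as 23 of 25 genes, of which 0 passed and all 23 had a negative mean difference, with a median of -0.41. In pairs 1 and 3 all 23 were negative, and in pair 2 it was 21. The arms did not overlap in 10 of the 23 (43.5%), against 9.23% of all tested genes. Ldha was 1361, 1651 and 1595 FPKM with IFN-γ and 1890, 2243 and 2311 FPKM with IL-27 (-0.48, 95% interval -0.77 to -0.19, adjusted p of 0.176). Gapdh was 1314, 1727 and 1640 FPKM against 1830, 2196 and 2311 FPKM (-0.44, 95% interval -0.88 to -0.002). The lactate exporter gene Slc16a3 was 87.0, 128 and 142 FPKM against 197, 197 and 219 FPKM (-0.81, adjusted p of 0.147), and Pgk1 differed by -0.56 (adjusted p of 0.161). Eno1 differed least of the abundant enzymes named here, by -0.18 (95% interval -0.50 to 0.15). With IL-33 alone Ldha was 1823 to 3065 FPKM. The 38 ribosomal protein genes had a median of 0.22 and were all positive in the mean, with 38, 38 and 31 positive in pairs 1, 2 and 3 and pair medians of 0.37, 0.20 and 0.09. All 38 had an interval within a doubling and a halving. Rplp1 was 5236, 5495 and 4410 FPKM with IFN-γ and 3953, 4152 and 3635 FPKM with IL-27 (0.36, adjusted p of 0.210), and Rpl19 differed by 0.20.

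All 10 tested of 15 fatty acid synthesis genes had negative mean differences, with a median of -0.26 and 0 calls. Of all tested genes, 51.3% had a positive one. Only 6 of the 10 had the same sign in all 3 pairs (60.0%, against 35.5% of all tested genes). The list ran from -1.52 for Scd2 to -0.09 for Acly. Scd2, a stearoyl-CoA desaturase gene, was 10.4, 26.4 and 22.2 FPKM with IFN-γ and 32.7, 68.1 and 72.0 FPKM with IL-27, against 117, 120 and 282 FPKM with IL-33 alone (-1.52, adjusted p of 0.0729). The 42 tested of 43 proliferation genes had a median of -0.09, and over the pairs it was -0.49, -0.03 and 0.28, so that the pairs differed in sign. Without IFN-γ replicate 1 the median was 0.16, and without IL-27 replicate 1 it was 0.06.

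The list of 17 serpin and Ms4a genes had 9 tested members, all with positive differences, 0 calls and a median of 0.90. The count and the median include Serpina3f, which was tested through the IFN-γ libraries, so they support nothing on the list. Serpina3f was 23.1, 23.6 and 39.1 FPKM with IFN-γ and 7.58, 4.06 and 3.30 FPKM with IL-27 (2.33 ± 0.38, adjusted p of 0.0570). Serpina3g was 87.4, 113 and 169 FPKM with IFN-γ and 30.4, 24.5 and 32.1 FPKM with IL-27 (2.00 ± 0.48, adjusted p of 0.150). Serpina3f reached the limit for testing through the IFN-γ libraries. Both were at most 2.82 FPKM with IL-33 alone, the arms did not overlap, and reads may be shared among the near-identical serpins of this cluster. Pecam1, which carried the endothelial list above, was 158, 164 and 204 FPKM with IFN-γ and 106, 81.7 and 99.3 FPKM with IL-27 (0.87, adjusted p of 0.129).

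Of 12 tested heat shock and folding genes the median was 0.003, and Hspa8, a constitutive chaperone gene, differed by -0.01 (95% interval -0.17 to 0.15). The 32 respiratory chain genes had a median of 0.10, with 31 of the 32 intervals within a doubling and a halving, and Atp5b, a subunit of ATP synthase, differed by 0.11. The 15 genes of NF-κB subunits and inhibitors had a median of 0.12, and Nfkbia, the inhibitor IκBα, differed by 0.31 (-0.07 to 0.69). Of 35 cell death genes 27 were tested, with a median of 0.07. Bax, a pore-forming death effector, was 322, 199.7 and 124 FPKM with IFN-γ and 172, 115 and 120 FPKM with IL-27 (0.58, 95% interval 0.12 to 1.03), and its arms overlapped. The 22 tested of 26 cholesterol genes had a median of -0.11, and Insig1, which restrains sterol synthesis, differed by -0.55 (-0.84 to -0.26). Acly, which supplies acetyl-CoA to fatty acid synthesis, differed by -0.09 (-0.33 to 0.15). The 13 tested of 15 lysosomal protease genes had a median of -0.21, and Ctsd, an aspartic protease, differed by -0.65 (-1.10 to -0.20). Junb, an AP-1 subunit, differed by -0.31 (-0.70 to 0.09). The chemokine receptor gene Cxcr6 was 657, 764 and 826 FPKM with IFN-γ and 746, 749 and 843 FPKM with IL-27, a difference of -0.06 (-0.27 to 0.15), and with Ccr2 it belonged to a list of homing receptors in which 1 of 19 tested genes passed.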

How the data were processed

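RNA of cultured ILC2s was sequenced in 9 libraries, 3 in each of 3 groups. Per the labels' protocols RNA was extracted with a micro-scale column kit and libraries followed a TruSeq RNA protocol for low input. Bowtie2 2.1.0, TopHat2 2.0.8 and Cufflinks 2.1.1 and build mm9 are named in the submitters' processing notes, and the annotation and parameters are not given in the sources used here. The values the authors deposited are taken as FPKM per gene symbol, a unit read from the Cufflinks header and the decimals rather than stated. The tables of replicate 3 carry 1 decimal and commas within numbers, which were removed, and 25 symbols had been turned into dates. Columns without a mapped sample numbered 0.

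Values were taken as log2(FPKM + 1), and genes were kept whose mean across the 6 IFN-γ and IL-27 libraries reached 5 FPKM. limma 3.58.1 in R 4.3.3 was fitted to all 9 libraries with the replicate number as a block and an intensity trend, two-sided, with Benjamini-Hochberg adjustment over the 8437 genes. Fold changes are on the log2(FPKM + 1) scale, which understates changes of low genes. The fit was tested on simulated data. The block follows the pairing by number, which was set beforehand. In a check, deviations from the group mean correlated at 0.1051 to 0.4433 for libraries with the same number (9 pairs). Those with other numbers correlated at -0.3413 to -0.0085 (18 pairs). Since each group was centred on its own mean, positive values for the same number pull the others below 0, so the latter are not separate support. Coordinates of genes are mm9, from GENCODE vM1, in which 21640 symbols had a single match. Members and gene lists were chosen with earlier results of these data known. Named were all called genes, a fixed set of cytokine, receptor and signalling genes and the 2 most abundant members of each list, and other genes were chosen after their values were seen. Alternatives changed the block, libraries, pseudocount, filter, scaling, rounding and trend and left out single libraries.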

Additional observations from a re-analysis of the deposited data

How the results depend on the processing

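The number of called genes depended on the fit, the pseudocount, the filter and each library. None of the 25 called genes changed sign under any of the 21 alternatives. All 25 had the same sign in all 3 pairs, so most alternatives could hardly reverse them. Their calls were less stable: Pim2 lost its call in 12 of 21 alternatives and Car7 in 16 of 20. Without the replicate block 0 genes were called higher and 0 lower with IFN-γ (359 at an unadjusted p under 0.05), in the 6 libraries with the replicate block 0 and 1, and in the 6 libraries without it 0 and 0 (386). Without the intensity trend the counts were 0 and 0 (980 at an unadjusted p under 0.05), and without a filter, which raised the tested genes to 14907, 0 and 0 (1460). A filter at a mean of 20 FPKM, which left 4402 genes, gave 17 and 30. A pseudocount of 0.1 gave 5 higher and 14 lower, and one of 5 gave 26 and 26, which moved the share of higher calls from 32% to 50%. A filter at 1 FPKM (8 and 15), rescaling without small RNAs (8 and 22), median centring (8 and 18), rounding (8 and 17) and a minimum fold of 2 (8 and 12) stayed within 1.5 times of the main counts. Leaving out 1 library or 1 replicate number gave 0 to 5 higher and 0 to 5 lower. Without replicate number 1 the fit shared 0 higher and 0 lower calls with the main fit, and the same held without number 2. The cause of these differences was not tested.

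Of 2337 combinations of a named gene and an alternative, 50 changed direction, in 17 genes, none of them called. Stat3 was -0.004 when rescaled without small RNAs. Over all alternatives the log2 differences ranged from -0.792 to 0.126 for Areg, -0.492 to 0.419 for Csf2, -0.107 to 0.018 for Cxcr6, -0.038 to 0.021 for Hspa8 and -0.304 to 0.031 for Icos. The ranges were -0.58 to 0.784 for Ido1, -0.858 to 0.2 for Ifng, -0.503 to 0.288 for Ifngr2, -0.041 to 0.253 for Il27ra, -0.46 to 0.269 for Il7r and -0.921 to 0.782 for Il9. They were -0.059 to 0.158 for Ly6a, -0.333 to 0.14 for Pdcd1, -0.531 to 0.177 for Pdcd1lg2, -0.029 to 0.364 for Rora, -0.014 to 0.063 for Stat3 and -0.084 to 0.196 for Zbp1. The median of the guanylate-binding proteins ranged from 0.81 to 1.14 over all alternatives, that of glycolysis from -0.53 to -0.31 and that of the type 2 products from -0.77 to 0.05. At this depth, differences of genes near 5 FPKM rest on few fragments.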

Other observations

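A feature named Mir1892, chosen after its values were seen, was listed at 3915, 2041 and 4397 FPKM in the IL-27 libraries, at 0, 109 and 0 FPKM in the IFN-γ libraries and at most 0.0018 FPKM with IL-33 alone. By its name it is a small RNA, and FPKM of so short a feature are uncertain as levels at this depth. The 0.0018 FPKM of IL-33 replicate 2 lay far below the 0.489 FPKM that 1 fragment in 2 kb was worth there. The difference of Mir1892 did not pass limma's test (adjusted p of 0.0529).

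Il22, which had a mean under the limit for testing, was 9.93, 10.0 and 1.10 FPKM with IL-27, 0, 0.53 and 3.80 FPKM with IFN-γ, and 9.79, 6.85 and 5.10 FPKM with IL-33 alone.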
